A study of Mus musculus with 7 samples.

Results

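The 6 genes of the platelet-derived growth factor (PDGF) family, the ligand genes Pdgfa, Pdgfb, Pdgfc and Pdgfd and the receptor genes Pdgfra and Pdgfrb, were followed in RNA-seq libraries of mouse embryonic fibroblasts (MEFs) under stress. They were taken by gene symbol alone from the 49382 genes of the expression table, where each symbol stood on 1 row. The study asked how fibroblasts adjust growth factor expression to environmental conditions, and these are genes through which fibroblasts both send and receive growth signals. MEFs are primary cells, here from the bodies of wild-type embryos of embryonic day 13.5 to 14.4 without head and fetal liver, used at passage 3 to 7. They are a mixed population of embryonic cells and not a clonal line. The study's methods describe sorting MEFs negative for the blood cell and macrophage markers CD45, CD11b and F4/80 unless noted otherwise, whereas the labels of these libraries mention no sort. How many embryos or cultures stood behind each library is not given in the sources used here. Cells were plated at 10000 per cm2 and cultured overnight before each treatment.

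There were 7 libraries, 1 per group. The control library came from cells with no treatment. Glucose depletion, glutamine depletion and hypoxia (a chamber at 0.1% oxygen) lasted 10 hours, as did ER stress from 1 μM thapsigargin, which empties the calcium store of the endoplasmic reticulum. Oxidative stress was 10 μM sodium arsenite and osmotic stress 100 mM added NaCl, both for 3 hours. The same control library served for the conditions of 3 and 10 hours, and the labels give it no time. For the depletions the study's methods describe incubation in DMEM without glucose or without glutamine, and they describe no medium change for the control. With 1 library per group the variation among replicates is unknown and no test was possible, and "rose" or "fell" is used here of a change of more than 2-fold against the control library on the log2(TPM + 1) scale. TPM is a gene's share of a library corrected for transcript length and scaled to a total of 1000000, so levels of different genes can be compared, and it keeps no read count, so the sequencing depth behind each value is unknown.

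PDGFs are secreted as dimers and are the classical mitogens and chemoattractants of fibroblasts and of the mural cells around blood vessels. The A and B chains are trimmed by proprotein convertases before secretion, whereas the C and D chains leave the cell in a latent form and are activated outside it by proteases, C by tissue plasminogen activator and D by urokinase or matriptase. The receptors are tyrosine kinases that pair when a dimer binds: PDGFRα accepts the A, B and C chains and PDGFRβ the B and D chains. In tissues PDGF-B comes mainly from endothelial cells, megakaryocytes and macrophages, and PDGFRα and PDGFRβ are standard markers of fibroblasts and mural cells.

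The RefSeq table held start-site sequences for 4 of the 6 genes, Pdgfa, Pdgfc, Pdgfd and Pdgfra. Those of Pdgfc and Pdgfd are shown because these ligands, both of the latent kind, moved differently, Pdgfc rising in glutamine depletion and Pdgfd falling in ER stress. Each line gives the 250 bases just before the annotated start site, 5′ to 3′ on the strand of the gene in GRCm38.p6, chr3:81036166-81036415 for Pdgfc and chr9:6168236-6168485 for Pdgfd. Neither stretch overlaps an exon of its gene in GENCODE M21. Capitals mark matches, on either strand, to any of the 8 motifs searched.
Pdgfc: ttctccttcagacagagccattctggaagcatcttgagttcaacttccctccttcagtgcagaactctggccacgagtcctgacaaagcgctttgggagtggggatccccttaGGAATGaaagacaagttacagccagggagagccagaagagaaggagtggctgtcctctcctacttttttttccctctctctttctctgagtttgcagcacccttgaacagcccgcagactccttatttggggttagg
Pdgfd: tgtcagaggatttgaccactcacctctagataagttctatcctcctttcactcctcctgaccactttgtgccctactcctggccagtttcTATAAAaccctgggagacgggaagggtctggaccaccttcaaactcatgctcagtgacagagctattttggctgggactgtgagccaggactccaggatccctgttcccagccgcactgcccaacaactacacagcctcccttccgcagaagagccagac
The single match in Pdgfc is GGAATG, the core of the site for the TEAD factors that partner YAP1, with its first base 137 bases before the start. GGAATG occurs in 12.6% of the 32851 annotated stretches of this length. The match in Pdgfd is to the letters of the TATA box motif, TATAAA (12.4% of stretches), 160 bases before the start. That start (6168486) lies upstream of the GENCODE start of Pdgfd (6168584). The stretches before the 2 annotated Pdgfa starts had 1 and 2 matches to the GC box GGGCGG (32.7%), and the Pdgfra stretch had none. The 2 matches of 1 Pdgfa stretch, 93 and 86 bases before its start, lie in bases that overlap annotated Pdgfa exons. The other motifs had no match in these stretches: GCGNGGGCG of EGR1 (4.7%), TGANTCA of AP-1 (6.75%), TGACGTCA of cAMP-responsive factors (1.55%), ACGTG of hypoxia-inducible factors (16.6%) and TGACGTG of the unfolded protein response (1.65%). All 8 were searched on both strands with N as any base and with overlaps allowed, and a match of the unfolded protein response motif always holds one of the hypoxia motif. A match is a description of the sequence only.

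All 6 genes passed the expression filter, a 7-library mean no lower than 2 TPM, as did 12909 genes in all. Pdgfb had a mean of 3.56 TPM, which was 1.56 TPM without the glutamine depletion library, so it passed only through the library in which it was highest. In the control library Pdgfrb was the most abundant at 129 TPM, followed by Pdgfa at 47.1 TPM, Pdgfc at 38.2 TPM, Pdgfd at 37.7 TPM and Pdgfra at 29.9 TPM. Pdgfb was far below the others at 0.824 TPM. Pdgfrb was first and Pdgfb last in each of the 7 libraries, while the order of the 4 genes between them changed. Pdgfc and Pdgfd, which differed by 1.01-fold in the control, are neighbours whose order cannot be settled without replicates.

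**Figure D1:**
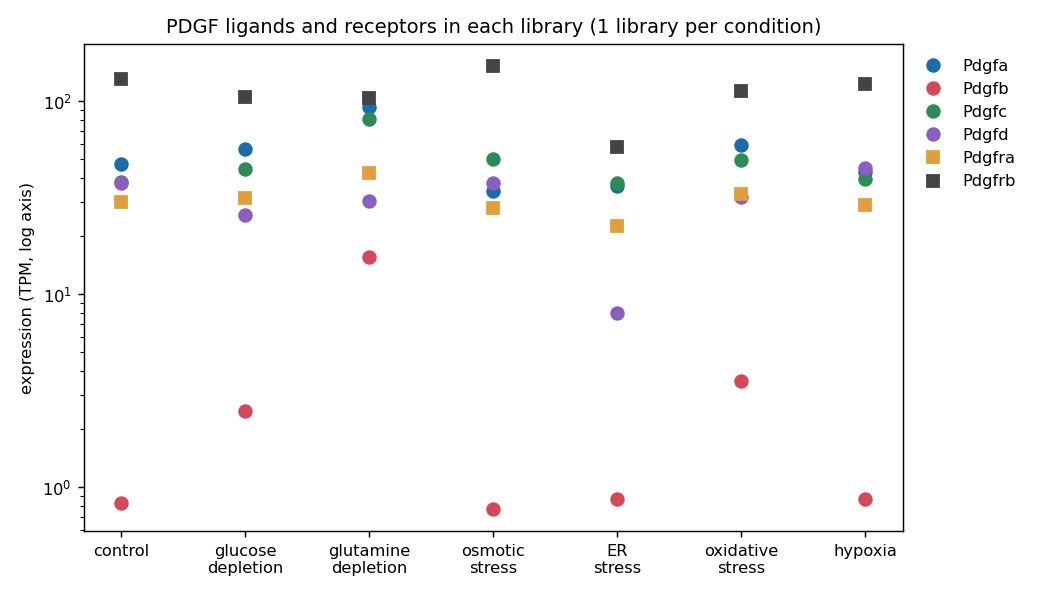
Level of each PDGF gene in each library, in TPM on a log axis; circles are ligands and squares receptors, with 1 library per condition and no error bars. Pdgfb moved over the widest range, from 0.769 TPM in osmotic stress to 15.5 TPM in glutamine depletion, and Pdgfd dropped to 8.01 TPM in ER stress.

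Of the 36 pairs of a PDGF gene and a condition, 5 passed 2-fold, 3 upward and 2 downward. In glutamine depletion Pdgfb and Pdgfc rose, where 6.41% of all 12909 genes passed 2-fold, 3.21% upward and 3.21% downward. Pdgfb is among these genes only through that library. In oxidative stress Pdgfb rose, where 8.78% of all genes passed, 3.94% upward and 4.85% downward (4.75% and 3.20% after centring on the median of all genes). In ER stress Pdgfd and Pdgfrb fell, where 19.6% of all genes passed, 8.6% upward and 11.0% downward. None of the 6 passed in glucose depletion, where 4.24% of all genes did (1.83% upward and 2.41% downward), in osmotic stress (11.8%, with 3.08% upward and 8.76% downward) or in hypoxia (6.21%, with 3.57% upward and 2.64% downward). With 6 genes, counts of 0 to 2 per condition say little against these shares.

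**Figure D2:**
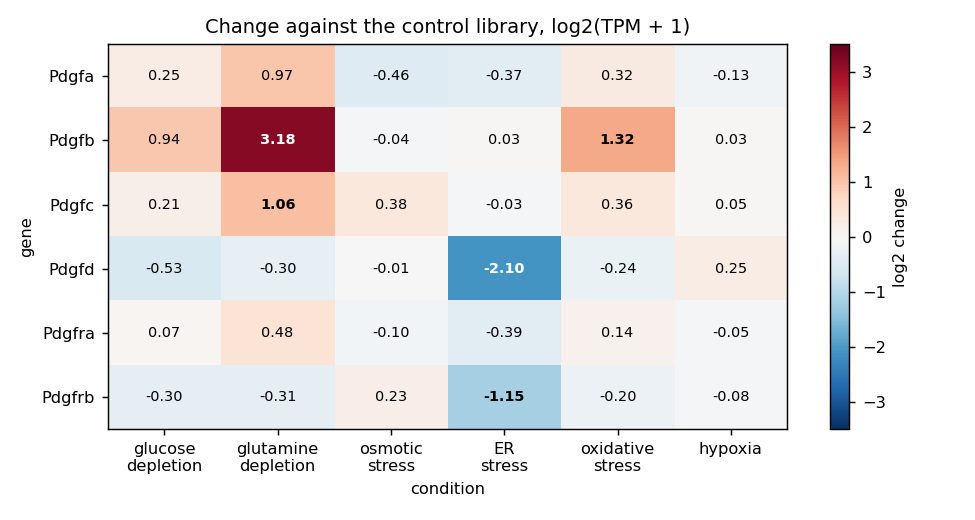
Log2 change of each PDGF gene against the control library, on the log2(TPM + 1) scale, with rows as genes and columns as conditions; bold values passed 2-fold. The largest values were those of Pdgfb in glutamine depletion (3.18) and Pdgfd in ER stress (-2.10).

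Among the ligands that are processed before secretion, Pdgfb (ENSMUSG00000000489, chr15:79995874-80014977, minus strand, GRCm38) had the widest range. Its B chain is the ligand that binds both receptors. It stood at 0.824 TPM in the control, 2.49 in glucose depletion, 15.5 in glutamine depletion, 0.769 in osmotic stress, 0.866 in ER stress, 3.55 in oxidative stress and 0.868 in hypoxia. Control, osmotic stress, ER stress and hypoxia thus lay within 0.1 TPM of each other, and the other 3 libraries lay above them. The log2 change was 3.18 in glutamine depletion, the 78th largest rise of the 12909 genes, and 1.32 in oxidative stress, the 354th. In glucose depletion it was 0.94, short of 2-fold on this scale, and the 254th from the top. Pdgfb is among the 12909 genes only through its value in glutamine depletion. Its rank there is therefore not independent of the filter, and these ranks are descriptions only. As a plain TPM ratio Pdgfb was 18.9-fold the control in glutamine depletion, 4.31-fold in oxidative stress and 3.02-fold in glucose depletion. These ratios have a control value under 1 TPM as their base, where few reads may lie behind a value and its counting error is unknown.

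Cells that usually make PDGF-B were looked for in the same libraries. The 6 endothelial markers summed to between 4.09 and 9.07 TPM with 6.68 TPM in the control library against 5.20 TPM under glutamine depletion. Pecam1 reached at most 1.02 TPM, Cdh5 0.288 TPM and Tie1 0.181 TPM. Emcn (1.17 TPM) and Kdr (2.75 TPM) made up most of the endothelial sum under glutamine depletion. Of the megakaryocyte markers Pf4 and Gp9 were at 0 TPM in every library, and the sum of the 4, which came from Itga2b and Gp1bb, was lowest in glutamine depletion, at 5.69 TPM against 9.72 TPM in the control. The 5 macrophage markers summed to 11.0 TPM in glutamine depletion and 10.3 TPM in the control, mostly Cd68 (7.79 TPM under glutamine depletion) and Lyz2 (2.23 TPM). Adgre1, which encodes F4/80, reached at most 0.11 TPM, and Ptprc, which encodes CD45, 0.280 TPM. The part of such cells in the Pdgfb values was not tested. In bulk RNA fewer cells of a type and less RNA per cell cannot be told apart.

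Pdgfa (ENSMUSG00000025856, chr5:138976014-138997370, minus strand) encodes the chain that signals through PDGFRα alone as a homodimer. It stood at 47.1 TPM in the control, 56.4 in glucose depletion, 93.3 in glutamine depletion, 34.0 in osmotic stress, 36.1 in ER stress, 59.3 in oxidative stress and 43.1 in hypoxia. It was highest in the same 3 libraries as Pdgfb and in the same order. The log2 change in glutamine depletion was 0.97, just inside the 2-fold line, and the others ran from -0.46 in osmotic stress to 0.32 in oxidative stress. An annotated antisense transcript, 6330403L08Rik, overlaps the gene and reached at most 5.10 TPM.

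Pdgfc (ENSMUSG00000028019, chr3:81036416-81214040, plus strand) is the latent ligand of PDGFRα that tissue plasminogen activator releases. It stood at 38.2 TPM in the control, 44.5 in glucose depletion, 80.8 in glutamine depletion, 49.9 in osmotic stress, 37.4 in ER stress, 49.4 in oxidative stress and 39.6 in hypoxia. Its log2 change in glutamine depletion was 1.06, just past 2-fold and only 0.09 from that of Pdgfa, so the line between these genes separates values that hardly differ. In osmotic stress, where Pdgfa was at its lowest, Pdgfc was above the control at 0.38, and the ratio of Pdgfc to Pdgfa was 1.47 against 0.811 in the control.

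Pdgfd (ENSMUSG00000032006, chr9:6168584-6378850, plus strand) is the latent ligand of PDGFRβ. It stood at 37.7 TPM in the control, 25.8 in glucose depletion, 30.4 in glutamine depletion, 37.5 in osmotic stress, 8.01 in ER stress, 31.8 in oxidative stress and 45.1 in hypoxia. The ER stress library lay apart from the other 6, all of which were above 25 TPM. The log2 change there was -2.10, the 299th largest fall of the 12909 genes, and 21.3% of the control TPM was left. Glucose depletion followed at -0.53. Pdgfd was the PDGF gene with the highest value in hypoxia relative to the control, at 0.25, well inside 2-fold. Where Pdgfa, Pdgfb and Pdgfc were highest, in glutamine depletion, Pdgfd was below the control.

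Of the receptors, Pdgfrb (ENSMUSG00000024620, chr18:61045150-61085061, plus strand) was the most abundant PDGF gene throughout. It stood at 129 TPM in the control, 104 in glucose depletion, 104 in glutamine depletion, 151 in osmotic stress, 57.6 in ER stress, 112 in oxidative stress and 122 in hypoxia. ER stress gave the lowest value by a wide gap, with a log2 change of -1.15 and 44.6% of the control TPM. The other 5 conditions ranged from -0.31 to 0.23. Pdgfra (ENSMUSG00000029231, chr5:75152292-75198215, plus strand), the receptor of the A, B and C chains, stood at 29.9 TPM in the control, 31.4 in glucose depletion, 42.2 in glutamine depletion, 27.9 in osmotic stress, 22.6 in ER stress, 33.0 in oxidative stress and 28.8 in hypoxia. It passed 2-fold in 0 conditions, with changes from -0.39 in ER stress to 0.48 in glutamine depletion, and had the narrowest range of the 6 genes, 1.87-fold between its lowest and highest library. The microRNA gene Mir7025 lies within Pdgfra on the same strand and was listed at up to 16.4 TPM, and the antisense transcript Gm42802 at up to 1.56 TPM, so reads could be split between them. The ratio of Pdgfrb to Pdgfra, which does not depend on the scaling of a library, was 4.32 in the control and highest at 5.43 under osmotic stress. It was lowest at 2.46 under glutamine depletion and 2.55 under ER stress, with Pdgfra at its highest in glutamine depletion and Pdgfrb at its lowest in ER stress.

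In ER stress the fibroblast markers were also low. All 8 of them were below the control, with log2 changes from -0.57 for Col1a2 to -2.33 for Lum. Of the 8, 2 fell (median -0.86, all genes 0.00), where 11.0% of all genes fell. The sum of the 8 was 6684 TPM, compared with 12268 TPM for the control and 11167 to 13850 TPM for the other 5 conditions. Hspa5, the ER chaperone that thapsigargin induces, took 12611 TPM of that library. The part of these changes in the fall of Pdgfd and Pdgfrb was not tested. With the 100 most abundant genes removed and the libraries rescaled, Pdgfd stood at -2.18 and Pdgfrb at -1.21 in ER stress. The sum of the 8 mural cell markers, most of it Acta2, ran from 2257 TPM in ER stress to 5038 TPM in glucose depletion. In ER stress Mcam (-1.97), Des (-1.34) and Notch3 (-1.15) fell, where 11.0% of all genes fell. Notch3 rose in hypoxia (1.25), where 3.57% of all genes rose. Cspg4 ranged from 54.3 to 139 TPM and was highest in glutamine depletion, at a log2 change of 0.94, while Rgs5, Abcc9 and Kcnj8 stayed at or under 2.28 TPM in every library.

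The summed TPM of the 4 ligands was 124 in the control, 129 in glucose depletion, 220.1 in glutamine depletion, 122 in osmotic stress, 82.4 in ER stress, 144 in oxidative stress and 129 in hypoxia. Glutamine depletion thus stood at 1.78 times the control, and ER stress at 0.665 of it. The receptor sum was 159 TPM for the control against 80.1 TPM for ER stress, and lay between 136 and 179 TPM in the other 5. Receptor transcripts outnumbered ligand transcripts in the control by 1.28 to 1, whereas in glutamine depletion the ratio was 0.663. It was 0.973 in ER stress, 1.01 in oxidative stress, 1.05 in glucose depletion, 1.17 in hypoxia and 1.47 in osmotic stress. The make-up of the ligands differed as well. Pdgfb took 0.665% of ligand transcripts in the control, against 2.46% under oxidative stress and 7.06% under glutamine depletion, and the share of Pdgfd went from 30.4% in the control to 13.8% in glutamine depletion and 9.72% in ER stress.

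**Figure D3:**
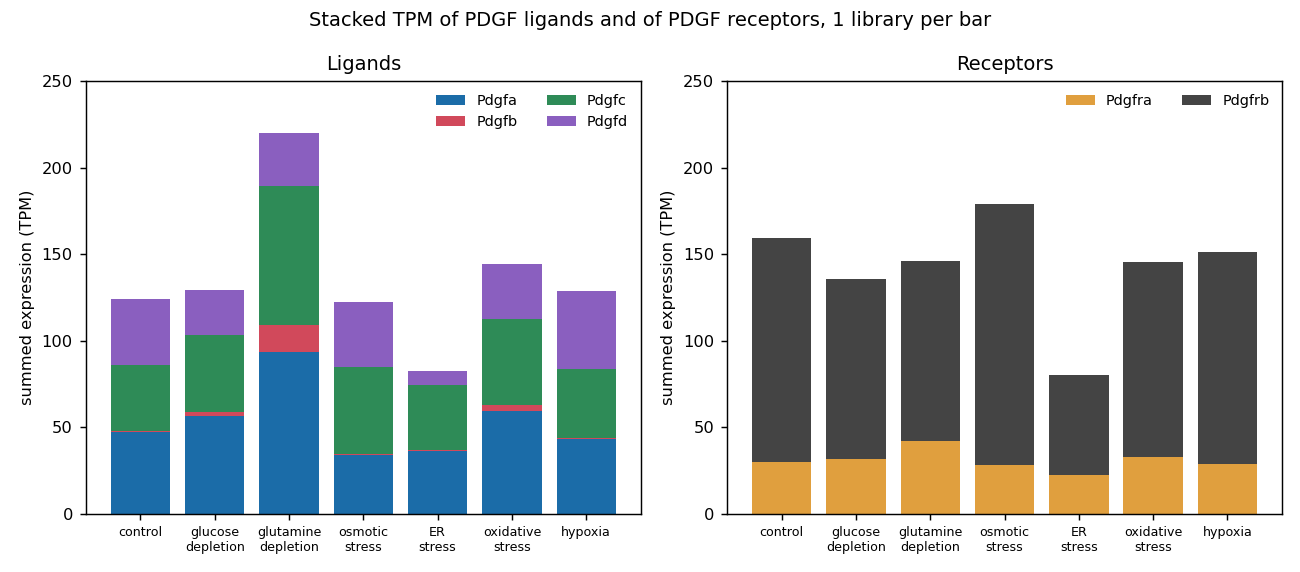
Stacked TPM of the ligand genes (left) and the receptor genes (right) in each library, 1 library per bar. The ligand stack is highest in glutamine depletion at 220.1 TPM and lowest in ER stress at 82.4 TPM, where the receptor stack is also lowest at 80.1 TPM.

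Conditions of equal duration were also compared directly, without the control library. At 10 hours glutamine depletion exceeded glucose depletion for Pdgfb by a log2 difference of 2.24, for Pdgfc by 0.85 and for Pdgfa by 0.72, while Pdgfrb differed by less than 0.01. Between these libraries 5.49% of all genes differed by more than 2-fold. Pdgfd was 5.64-fold higher in TPM in hypoxia than in ER stress, a log2 difference of 2.36, and Pdgfrb 2.13-fold, a log2 difference of 1.07, where 22.4% of all genes differed. Glutamine depletion was above ER stress for all 6 genes, from 0.84 for Pdgfrb to 3.15 for Pdgfb. In that comparison 19.7% of all genes differed by more than 2-fold. At 3 hours oxidative stress exceeded osmotic stress for Pdgfb by 1.36 and for Pdgfa by 0.79, while Pdgfrb was higher in osmotic stress by 0.43 and Pdgfc was within 0.02, with 11.8% of all genes past 2-fold.

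**Figure D4:**
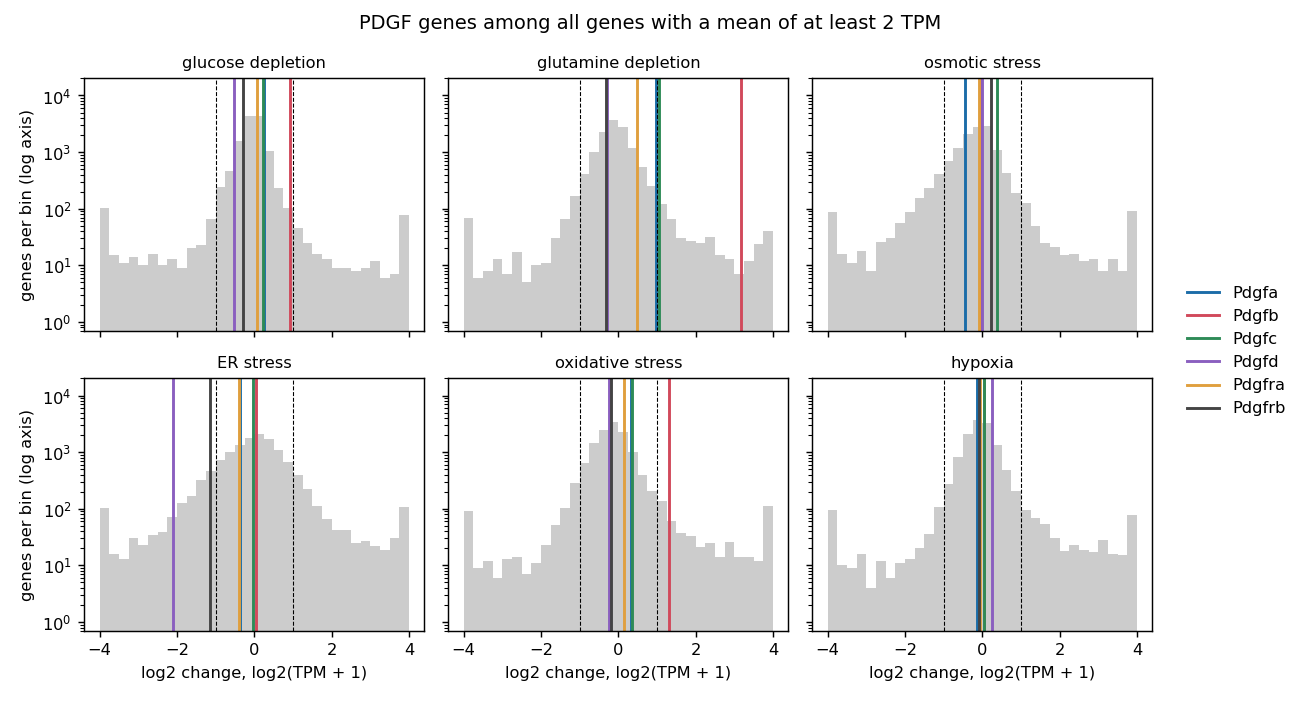
Distribution of the log2 change in each condition over the 12909 genes past the expression filter (grey bars, genes per bin on a log axis, the outermost bins holding all genes beyond them), with a coloured line for each PDGF gene and dashed lines at 2-fold. In hypoxia the 6 lines lie between -0.13 and 0.25, and in glutamine depletion Pdgfb stands far to the right at 3.18.

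Across the 7 libraries the levels of Pdgfb on the log2(TPM + 1) scale had a Pearson r of 0.95 with Pdgfa, 0.91 with Pdgfc and 0.88 with Pdgfra, and those of Pdgfd had 0.95 with Pdgfrb. Pdgfb with Pdgfd (0.08) and with Pdgfrb (-0.06) were near 0. These are descriptions over 7 points that share their libraries. Pdgfa, Pdgfb, Pdgfc and Pdgfra all had their highest value in glutamine depletion, and Pdgfd and Pdgfrb their lowest in ER stress. Among 5613 other genes with a range of at least 1 log2 unit, the closest to Pdgfb were Epb41l1 (r = 0.977), Prr14l (0.965) and Hivep3 (0.964). Epb41l1 (0.972) and the metalloprotease gene Adamts6 (0.976) were also among the closest to Pdgfa. Those closest to Pdgfc were Frmd6 (0.972), the kinase gene Hipk2 (0.960) and Errfi1 (0.946), an inhibitor of the EGF receptor that went from 28.1 TPM in the control to 298 TPM in glutamine depletion. Pdgfd was followed most closely by Itih5 (0.995), Reck (0.994) and Cd81 (0.994), and Pdgfrb by the TGF-β co-receptor gene Tgfbr3 (0.997), Cst3 (0.995) and Arxes2 (0.992). Ammecr1 (0.989), Pstpip2 (0.985) and Has2 (0.984) were closest to Pdgfra. For Pdgfd and Pdgfrb 440 and 341 of the genes searched had r above 0.9, against 16 for Pdgfc, 36 for Pdgfb, 60 for Pdgfa and 81 for Pdgfra.

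The proteases that process PDGF chains formed a list of 7 genes. In ER stress 3 of them fell and 0 rose (list median -0.58, all genes 0.00), where 11.0% of all genes fell. Plau, which encodes urokinase, went from 64.3 to 4.29 TPM (log2 change -3.63), and Plat, which encodes tissue plasminogen activator, from 31.6 to 5.71 TPM (-2.28). Furin, a convertase of the A and B chains, went from 112 to 51.3 TPM (-1.11). The latent ligands Pdgfc and Pdgfd thus differed in ER stress, at -0.03 and -2.10, while Plat and Plau, whose products activate them, both fell. In glutamine depletion Plau rose to 159 TPM (1.29) and 0 fell (median -0.00, all genes -0.09), where 3.21% of all genes rose. In osmotic stress Plat rose to 70.3 TPM (1.13) and 0 fell (median 0.18, all genes -0.12), where 3.08% of all genes rose. None of the 7 passed in glucose depletion, oxidative stress or hypoxia, with list medians of -0.03, 0.13 and -0.10, and St14, which encodes matriptase, was under 7 TPM everywhere.

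The PDGF co-receptors Nrp1 and Lrp1 both fell in ER stress, by log2 changes of -1.34 and -1.35, and Sparc, a matrix protein that binds PDGF-B, stood at -0.84. The median of this list was -1.34 there (all genes 0.00), and 11.0% of all genes fell. Of the 3 none passed in the other 5 conditions. The 16 genes of proximal receptor signalling (adaptors, SRC family kinases, phospholipase Cγ and PI 3-kinase subunits) held a single change past 2-fold, Fyn in ER stress, from 44.0 to 91.8 TPM (1.04), where 8.6% of all genes rose. The others lay on both sides of 0, down to -0.81 for the adaptor gene Nck1 in osmotic stress and up to 0.71 for the same gene in ER stress. Gab1, another adaptor, was below the control in 5 conditions, at -0.64 to -0.79 in 4 of them. The list medians ran from -0.17 in oxidative stress to 0.05 in osmotic stress.

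Of 8 genes that restrain receptor signalling, 4 rose in glutamine depletion and 0 fell (median 0.63, all genes -0.09), where 3.21% of all genes rose. Cblb, a ubiquitin ligase that marks activated receptors for degradation, went from 10.9 to 38.6 TPM (1.73), and the phosphatase gene Ptprj from 4.73 to 15.9 TPM (1.56). Ptpn1, which encodes another phosphatase, had 1.03 and Cbl 1.00. In ER stress Ptpn2 (1.52) and Cblb (1.19) rose (median 0.05, all genes 0.00), where 8.6% of all genes rose, and in oxidative stress Cblb (1.11) rose (median 0.43, all genes -0.16), where 3.94% did. None of the 8 passed in glucose depletion, osmotic stress or hypoxia.

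Genes that PDGF induces early in fibroblasts formed a list of 12, many of which respond to other stimuli too. In glutamine depletion 7 rose and 0 fell (median 1.25, all genes -0.09), led by Ptgs2, the inducible cyclooxygenase, from 83.8 to 667 TPM (2.98), and Has2, a hyaluronan synthase, from 15.4 to 97.5 TPM (2.59), with Egr1 at 1.58 and Ier2 at 1.40, where 3.21% of all genes rose. In oxidative stress 5 rose and 1 fell (median 0.90, all genes -0.16), with Ptgs2 at 2.53, Ier3 at 1.96, Fosl1 at 1.42 and the chemokine gene Cxcl1 at -1.36, where 3.94% of all genes rose and 4.85% fell. In osmotic stress 4 rose, with Ier3 at 2.69 and Ptgs2 at 2.31, and 0 fell (median 0.48, all genes -0.12), where 3.08% of all genes rose. In ER stress 4 rose, led by Myc (2.20), and Has2 fell (-1.84), with a median of 0.58 (all genes 0.00), where 8.6% of all genes rose and 11.0% fell. In hypoxia Ier3 (1.66) rose and Ccl2 (-1.04) fell (median -0.06, all genes -0.05), where 3.57% rose and 2.64% fell. In glucose depletion 0 of the 12 passed (median 0.21, all genes -0.02).

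**Figure D5:**
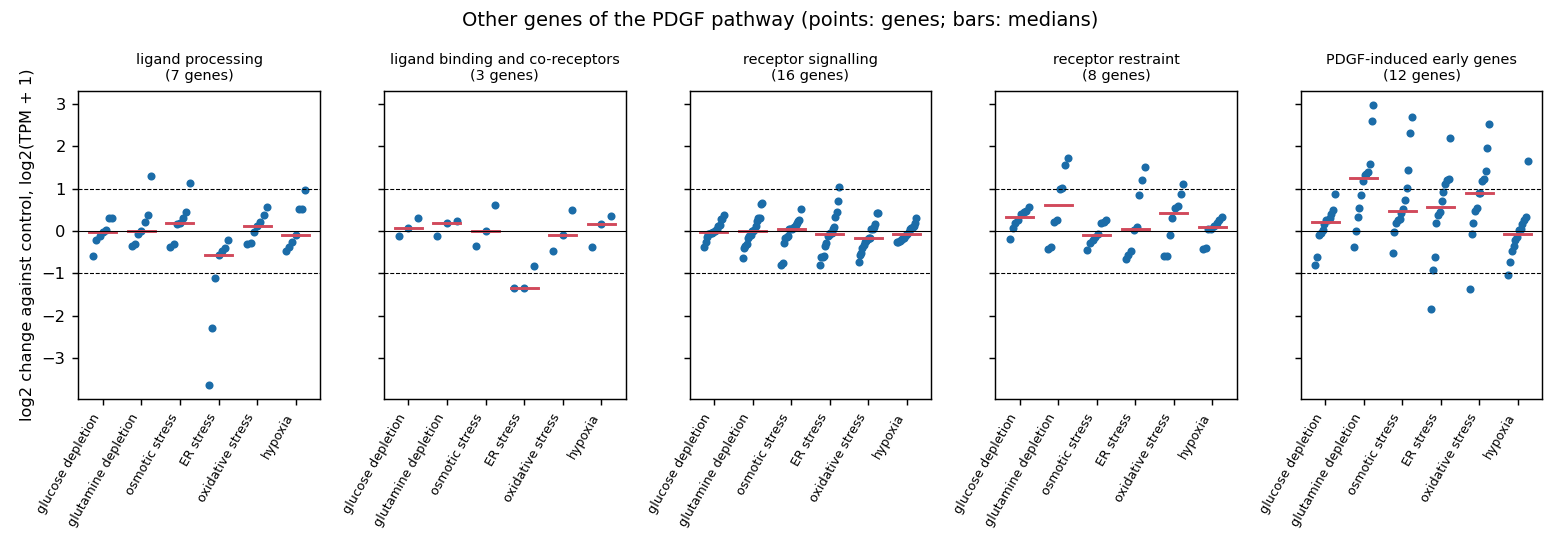
Log2 change against the control library of the other genes of the PDGF pathway, 1 panel per list, with a point per gene, a red bar at the list median and dashed lines at 2-fold. The proteases lie lowest in ER stress (median -0.58), the medians of the signalling genes stay near 0 with single genes from -0.81 to 1.04, and the early genes lie highest in glutamine depletion (median 1.25).

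The VEGFs are the ligands most related to PDGFs, and their list held 5 genes. Vegfa, the main angiogenic factor, rose under 4 conditions, by 2.34 under glutamine depletion, 2.02 under oxidative stress, 1.79 under hypoxia and 1.10 under ER stress. Pgf, the placental growth factor, rose in oxidative stress (1.64). Vegfd, a ligand for lymphatic vessel growth, fell in ER stress (-1.99), where 11.0% of all genes fell. None of the 5 passed in glucose depletion or osmotic stress, where 4.24% and 11.8% of all genes did. The medians of the 5 were -0.17 under glutamine depletion, -0.23 under oxidative stress, 0.51 under hypoxia and -0.48 under ER stress, where 3.21%, 3.94%, 3.57% and 8.6% of all genes rose. In hypoxia, where Vegfa rose, the PDGF genes stayed between -0.13 and 0.25. Among the 6 related receptors, Kit reached at most 0.341 TPM, Flt3 0.195 TPM and Csf1r 2.25 TPM. PDGFRα and PDGFRβ were thus the sole receptors of their class above the expression filter. Flt1, Kdr and Flt4 passed 2-fold in 0 conditions, where 4.24% to 19.6% of all genes did, and 3 genes say little against these shares.

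The libraries had between 19819 and 21154 genes above 0. The treatment check genes changed in their own libraries, Bnip3 by 4.85 in hypoxia, Hmox1 by 4.50 in oxidative stress, Hspa5 by 3.44 in ER stress, Akr1b3 by 2.66 in osmotic stress, Txnip by -2.07 in glucose depletion and Chac1 by 1.69 in glutamine depletion. Of these, 3 also passed 2-fold elsewhere, Txnip in osmotic stress (-3.12), Hmox1 in ER stress (2.75), and Chac1 in ER stress (3.05), oxidative stress (1.38) and osmotic stress (-2.36), so Txnip and Chac1 moved further in other libraries than in their own. The 4 epithelial markers summed to between 3.88 and 11.6 TPM, mainly Krt18, and the 5 markers of the oligodendrocyte lineage, whose precursors express Pdgfra, to between 1.15 and 3.13 TPM. The median log2 change of all genes was -0.16 for oxidative and -0.12 for osmotic stress, and within 0.1 of 0 elsewhere. Relative to that median Pdgfb stood at 0.08, Pdgfd at 0.12 and Pdgfra at 0.02 in osmotic stress, on the other side of 0 from their uncentred values, and no other PDGF gene changed side in any condition.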

How the data were processed

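RNA-seq libraries were made from wild-type MEFs with a stranded mRNA kit and sequenced from both ends, 1 library per condition. The authors quantified reads with kallisto (0.43.1 in the submitters' processing notes) at default settings on the mouse cDNA set of Ensembl release 90 (GRCm38) and, where a gene had several transcripts, added up their TPM before the table was deposited. Whether strand was used in counting is not given in the sources used here.

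Changes are differences in log2(TPM + 1) from the control library. The study's methods give this pseudocount of 1 TPM and the 2-fold line for stress conditions. The background counts cover genes whose 7-library mean reached 2 TPM. Only the rule for counting genes past 2-fold was tested on simulated data, with changes placed in well-expressed genes. That test did not cover the other steps, or changes of genes as low as Pdgfb. The PDGF genes and all gene lists (ligand processing, co-receptors, receptor signalling and restraint, early genes, related ligands and receptors, treatment check genes, and markers of fibroblasts, mural, endothelial, macrophage, megakaryocyte, epithelial and oligodendrocyte lineage cells) were chosen with earlier results of these data known, and the motifs after the libraries had been read. From each list the genes past 2-fold with the largest change were named, at most 4 per condition, and for each PDGF gene the 3 genes with the highest Pearson r, leaving out predicted genes and repeated symbols. A gene of the ligand processing list and a gene close to Pdgfa are not reported here, and the former is left out of its list's counts and medians. Marker genes and genes within 2-fold are named as values. Gene locations are from GENCODE M21 and start-site sequences from RefSeq. Alternatives were other pseudocounts, thresholds, filters, scalings and a median reference. Calculations ran in Python 3.11.15 with pandas 2.3.3, numpy 2.4.6 and, for figures, matplotlib 3.10.9.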

Additional observations from a re-analysis of the deposited data

How the results depend on the processing

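No paired analysis was possible because each group has 1 library and the labels carry no replicate numbers, and no replicate could be left out. Of the recomputed log2 changes of PDGF genes none that had passed 2-fold turned its direction. There were 202 that kept their side of the 2-fold line without crossing 0, and 7 within 2-fold crossed 0. Some of the 202 became exactly 0 with the median reference, where the library was itself the median. The count of PDGF genes past 2-fold, 5 over all conditions, became 3 with a pseudocount of 5 TPM, with a mean of at least 10 TPM (which leaves out Pdgfb) and with the median of the 7 libraries as reference, and 2 with a 3-fold threshold. In glutamine depletion it went from 2 to 1 under each of these 4 settings, and to 3 with centring or a 1.5-fold threshold. Over all conditions it became 6 with a pseudocount of 0.1 TPM, with centring or without the 100 most abundant genes, and 7 with a 1.5-fold threshold. In oxidative stress it went from 1 to 0 with a pseudocount of 5 TPM, a 3-fold threshold or a mean of at least 10 TPM. In ER stress it went from 2 to 1 with a 3-fold threshold or the median reference. In glucose depletion it went from 0 to 1, through Pdgfb, with a pseudocount of 0.1 TPM, a 1.5-fold threshold or without the 100 most abundant genes. The rise of Pdgfb in glutamine depletion ranged from 1.82 to 4.08 and the fall of Pdgfd in ER stress from -2.22 to -1.71. The rise of Pdgfc in glutamine depletion was 0.99 with a pseudocount of 5 TPM and 0.85 against the median reference, and that of Pdgfb in oxidative stress 0.55 with a pseudocount of 5 TPM. The fall of Pdgfrb in ER stress was -0.95 against the median reference. Centring put Pdgfa in glutamine depletion past 2-fold, at 1.06. The share of all genes past the threshold depended on pseudocount, filter, threshold and reference, and 31 such shares moved by over 1.5 times. It was 4.24% in glucose depletion (1.79% to 9.70% over the alternatives), 6.41% in glutamine depletion (2.88% to 18.1%), 11.8% in osmotic stress (4.96% to 26.1%), 19.6% in ER stress (7.20% to 40.2%), 8.78% in oxidative stress (3.88% to 23.5%) and 6.21% in hypoxia (3.10% to 15.3%). The lowest came with no expression filter, a mean of at least 10 TPM or a 3-fold threshold, and the highest with a 1.5-fold threshold. Without read counts, depth sets no stated limit on Pdgfb near 1 TPM.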
